A study of Mus musculus with 8 samples.

Results

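Both antibodies compared here recognise a tag on the same protein. Germ cells of mouse testes expressed Dazl, an RNA-binding protein of the germ line, joined to both a GFP and a V5 tag, and RNA was precipitated from testis lysates with an antibody against V5 or with one against GFP. The comparison rests on 4 of the 8 arrays of the series, 2 with V5 and 2 with GFP, chosen by their titles. The other 4 arrays, 2 of a mock precipitate with normal mouse IgG and 2 of input total RNA, are used for the spread of the fit and for levels set beside those of V5 and GFP. All 8 samples came from testes of male mice at postnatal day 14, of a mixed C57BL/6 and 129SV background, and expressed Dazl-GFP-V5. The V5, GFP and IgG precipitates were made without UV crosslinking, and the input RNA was not precipitated. A mock or input from mice without the fusion was not analysed here. How the fusion was introduced, what drives it, and whether animals were pooled are not given in the sources used here.

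Dazl binds U-rich sites in messenger RNAs, for the most part in their 3′ untranslated regions, and works with poly(A)-binding proteins to promote translation and to keep transcripts stable in germ cells. It is needed for germ cell development in both sexes. In the testis at this age, spermatogonia and spermatocytes in meiotic prophase lie among Sertoli cells, with myoid, Leydig and blood cells around the tubules. A precipitate made without crosslinking can hold RNA bound by the protein itself, RNA of its partner proteins, and RNA that adheres to beads or antibody.

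The labels conflict in places. Where the samples give GFP as the target of the second antibody, the design text of the series gives PABP1, a poly(A)-binding protein; the samples' own label is used. The description of V5 replicate 1 calls it total RNA, while its title, source and antibody call it a V5 precipitate. Across 41174 probes that array correlated at Pearson r = 0.9929 with V5 replicate 2 and at 0.9699 and 0.9701 with the input arrays, and input replicate 2, described as a precipitate, correlated at 0.9919 with input replicate 1. The GFP arrays correlated at 0.991 with each other, and a V5 with a GFP array at 0.9904 to 0.9913, so that the 4 arrays differed little from each other. The V5 and GFP arrays lay on one slide, and the IgG and input arrays on another. Of 43379 spots per array 57.2% to 62.3% were well above background, and 0 were saturated. Nothing in the labels ties the 2 replicates of a group to different animals, and p-values may therefore reflect technical spread alone. Of the germ cell markers, Ddx4, Mael, Tex14, Sycp3 and Kit were above background on all 4 arrays. So were 32 of 32 measured Sertoli markers, so RNA of Sertoli cells was present beside that of the labelled germ cells.

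Levels below are log2 signals relative to the 75th percentile of each array, and differences are log2 V5 minus GFP ± SE, with 2 arrays each, from a limma fit over all 8 arrays. A gene was called where limma's adjusted p, by Benjamini-Hochberg over 17593 genes, was below 0.05. By this rule 1190 genes (6.76%) were higher and 1262 (7.17%) lower with V5 than with GFP, together 13.9%. The differences were small: the median absolute log2 difference was 0.20, and the 5th and 95th percentiles were -0.46 and 0.43. At least 1.5-fold higher were 141 of the called genes and at least 1.5-fold lower were 174, and at least 2-fold 51 and 12. Of the 51 genes, 42 were not above background on either GFP array, and of the 12 genes, 10 were not on either V5 array. Among the 15792 genes above background on all 4 arrays, 39 were called at least 1.5-fold higher and 154 at least 1.5-fold lower. An unadjusted p below 0.05 was found for 6734 genes (38.3%). Without any test, both V5 arrays were above both GFP arrays for 45.4% of all genes and below both for 25.9%, and the median of all genes was 0.089.

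These calls lean on the IgG and input arrays for their spread. Nearly all of them, 2450 of 2452, had an adjusted p between 0.02 and 0.05. In a fit of the 4 V5 and GFP arrays alone all 2452 had an unadjusted p below 0.05, but 2 genes in all had an adjusted p below 0.05, of which 1 was among the 2452. Unadjusted p-values below 0.05 were given to 2841 lower genes (16.2%) and 4511 higher genes (25.6%) in that fit. Left-out arrays mattered as well, with 3 genes higher and 2 lower without V5 replicate 1, 4 and 3 without V5 replicate 2, 110 and 35 without GFP replicate 1, and 7 and 12 without GFP replicate 2. Scaling to spike-in control probes in place of the 75th percentile lowered the median of all genes to -0.019 and left 110 genes called higher and 1176 called lower. A statement that a gene rose or fell below refers to the fit of all 8 arrays. None of the 272 called genes followed through the alternatives passed in the 4-array fit, though all 272 had an unadjusted p below 0.05 there, and 19 passed without at least 1 of the 4 arrays.

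**Figure D1:**
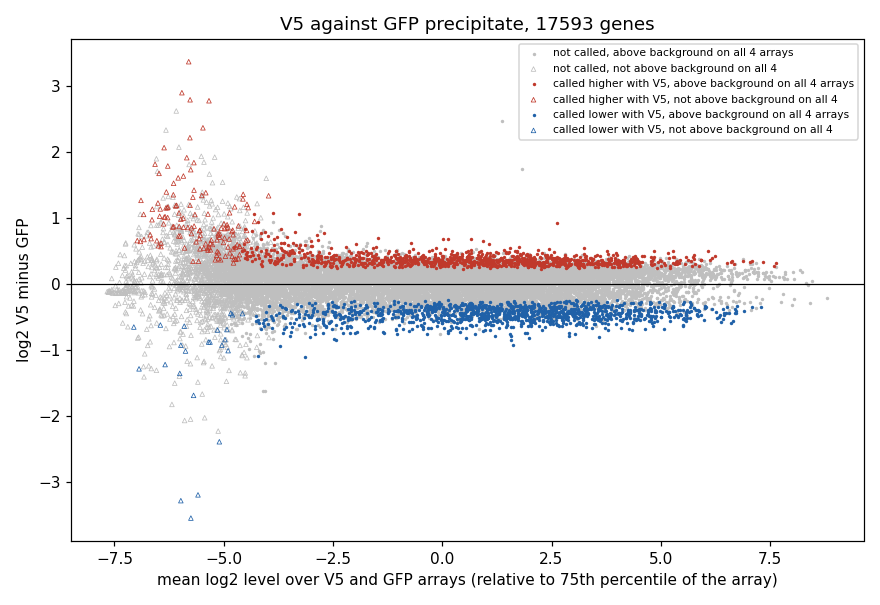
Each point is 1 of 17593 genes, with the mean log2 level over the V5 and GFP arrays on the horizontal axis and log2 V5 minus GFP on the vertical axis. Filled points lie above background on all 4 arrays, open triangles do not; red and blue mark the 1190 genes called higher and the 1262 called lower with V5, and large differences are mostly of open triangles at low levels.

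Dazl's own transcript stood at 2.84 and 2.71 with V5, against 3.38 and 3.19 with GFP, on the log2 scale. Both V5 arrays were below both GFP arrays, by -0.51 ± 0.15, but the gene did not pass (limma adjusted p = 0.0638), and its difference ranged from -0.61 to -0.41 when 1 of the 4 arrays was left out. Its level was 1.79 in the IgG mock and 3.87 in input. Pabpc1, the main cytoplasmic poly(A)-binding protein, did not separate the antibodies, with 6.22 and 6.45 with V5, against 6.22 and 6.18 with GFP (0.13 ± 0.12, adjusted p = 0.445).

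Among 15 transcripts that earlier work reported as bound or regulated by Dazl, 3 fell and 1 rose with V5. These were 20% and 6.67%, against 7.17% and 6.76% of all genes. Their median was -0.12, against 0.089 over all genes. That median ranged over -0.13 to -0.059 when an array was left out and was -0.023 with normexp background correction, an alternative that fits the background of each array. Tex19, a germ cell protein that restrains retrotransposons, had 6.18 and 6.29 with V5, against 6.76 and 6.57 with GFP (-0.43 ± 0.086, adjusted p = 0.0340). Cdc25a, a phosphatase that drives the cell cycle, had -0.19 and -0.16 with V5, against 0.28 and 0.26 with GFP (-0.44 ± 0.076). Sdad1 fell by the probe that stands for it (-0.51 ± 0.094), while its other probe had the opposite sign. Tex14, which is needed for the bridges between germ cells, was the member that rose, with 0.85 and 0.79 with V5, against 0.56 and 0.42 with GFP (0.33 ± 0.077, adjusted p = 0.0422). Its call ended with spike-in scaling, at 0.22. The germ cell helicase Ddx4 had nearly equal levels, 3.18 and 3.18 with V5, against 3.23 and 3.11 with GFP (0.011 ± 0.15), and Sycp3, a protein of the synaptonemal complex, overlapped between the antibodies (-0.21 ± 0.20, adjusted p = 0.466). Transcripts known as Dazl targets therefore lay on both sides of 0.

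The group with the lowest median was that of differentiating spermatogonia. Of 9 measured genes of 13 listed, 7 fell with V5, 77.8% against 7.17% of all genes (median -0.55). All 9 had both V5 arrays below both GFP arrays, against 25.9% of all genes. Dmrt1, a transcription factor that holds spermatogonia back from meiosis, had 1.10 and 1.27 with V5, against 1.97 and 1.95 with GFP, a level 1.71-fold higher with GFP (-0.78 ± 0.081, adjusted p = 0.0263). Kit, the stem cell factor receptor that marks differentiating spermatogonia, had 2.37 and 2.25 with V5, against 2.95 and 2.84 with GFP (-0.58 ± 0.079, adjusted p = 0.0263). Ccnd1, cyclin D1, had 2.29 and 2.20 with V5, against 2.85 and 2.83 with GFP (-0.59 ± 0.11). In each of these genes the 2 arrays of an antibody lay closer together than the antibodies did.

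The de novo DNA methyltransferase Dnmt3b (-0.57 ± 0.072), the transcription factors Dmrtb1 (-0.55 ± 0.096) and Sohlh2 (-0.42 ± 0.069), and Stra8, induced by retinoic acid at the entry into meiosis (-0.37 ± 0.077), fell too. Cyclin D2, Ccnd2 (-0.41 ± 0.11, adjusted p = 0.0510), and the retinoic acid receptor Rarg (-0.40 ± 0.14, adjusted p = 0.0968) did not pass. Levels in the other samples were -0.45 in the IgG mock and 0.35 in input for Dmrt1, 1.10 in the IgG mock and 0.93 in input for Kit and 1.23 in the IgG mock and 0.15 in input for Ccnd1. V5 thus stood between GFP and the mock for these 3 genes. The mock lay on the other slide, so slide and group cannot be told apart there. The list's median stayed within -0.62 to -0.50 when 1 of the 4 arrays was left out, and was -0.66 with spike-in scaling, where 7 members were called lower. In the 4-array fit 8 of the 9 had an unadjusted p below 0.05.

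Genes of undifferentiated spermatogonia gave 5 lower and 0 higher of 19 measured (median -0.23, or -0.080 with normexp background). The share called lower was 26.3%, against 7.17% of all genes. Lin28, named Lin28a in RefSeq, which blocks maturation of let-7 microRNAs, had 0.69 and 0.57 with V5, against 1.34 and 1.29 with GFP (-0.68 ± 0.078, adjusted p = 0.0263). Foxo1, a forkhead factor of spermatogonial stem cells, had 3.22 and 3.12 with V5, against 3.75 and 3.80 with GFP (-0.60 ± 0.070). The stem cell transcription factor Sall4 (-0.53 ± 0.11), Bcl6b, a transcriptional repressor induced by GDNF (-0.37 ± 0.061), and the adhesion protein Cdh1 (-0.41 ± 0.088) were the other 3. The GDNF receptor subunit Gfra1 (-0.46 ± 0.16, adjusted p = 0.0936) and Nanos2 (-0.51 ± 0.23, adjusted p = 0.154) did not pass, and neither did Nanos3 (0.23 ± 0.092) or Thy1 (0.19 ± 0.11), which had both V5 arrays above both GFP arrays. Of the 19 genes, 13 had both V5 arrays below both GFP arrays, against 25.9% of all genes. For 3 both were above, against 45.4% of all genes.

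Genes of the list of Dazl partners and poly(A) factors were mostly on the lower side: 8 of 34 fell, 2 rose, and the median was -0.28. The shares called were 23.5% lower and 5.88% higher, against 7.17% and 6.76% of all genes. Cpeb1, which binds the cytoplasmic polyadenylation element, had 2.14 and 2.22 with V5, against 2.81 and 2.72 with GFP (-0.59 ± 0.069, adjusted p = 0.0263). Dazap2, found as a Dazl-associated protein, had 6.28 and 6.37 with V5, against 6.98 and 6.84 with GFP (-0.59 ± 0.075). BC017133, named Paip2b in RefSeq, an inhibitor of poly(A)-binding protein, had -0.62 ± 0.072, and Cugbp1, a binder of CUG repeats, -0.54 ± 0.069. Nanos1 (-0.47 ± 0.085), the deadenylase subunit Cnot6l (-0.39 ± 0.073) and the nuclear poly(A)-binding protein Pabpn1 (-0.37 ± 0.078, with 1 of 4 probes of the opposite sign) were among the others that fell. Pabpc2 (0.29 ± 0.066) and Dzip1 (0.28 ± 0.071) rose, and with spike-in scaling 0 members were called higher and 8 lower.

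The ELAV proteins bind AU-rich and U-rich elements and stabilise messenger RNAs. Of the 4 family members 3 fell, 75% against 7.17% of all genes (median -0.45). All 4 had both V5 arrays below both GFP arrays, against 25.9% of all genes. Elavl1, present in most cell types, had 3.65 and 3.44 with V5, against 4.05 and 4.00 with GFP (-0.48 ± 0.088, adjusted p = 0.0309), with all 3 of its probes lower. The neuronal members Elavl3 (-0.43 ± 0.082) and Elavl4 (-0.49 ± 0.11) fell as well. Elavl2, which had 3.82 and 3.61 with V5, against 4.18 and 4.00 with GFP (-0.38 ± 0.12), did not pass (adjusted p = 0.0684). Elavl1 stood at 2.45 in the IgG mock and 2.83 in input, and Elavl2 at 1.96 in the IgG mock and 2.20 in input. With spike-in scaling 2 of the 4 were called.

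Genes of pluripotent cells had 7 lower (28%, against 7.17% of all genes) and 0 higher of 25 (median -0.27, or -0.082 with normexp background). Besides Lin28 and Sall4, which are in the spermatogonial list too, these were Klf5, with -0.56 and -0.77 with V5, against 0.0019 and -0.00057 with GFP (-0.67 ± 0.097), Dppa3 (-0.59 ± 0.093), Tcfcp2l1 (-0.53 ± 0.069), Mycn (-0.45 ± 0.067) and the let-7 blocker Lin28b (-0.38 ± 0.066). Dppa3, a maternal factor that protects methylated DNA, stood at -4.16 in the IgG mock and -3.95 in input. Zfp42 (-0.34 ± 0.098, adjusted p = 0.0618) and Dppa4 (-0.44 ± 0.13, adjusted p = 0.0641) did not pass.

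Polycomb genes, whose products repress genes by modifying histones, gave 7 lower and 0 higher of 37. The share called lower was 18.9%, against 7.17% of all genes. Their median of -0.068 ranged over -0.13 to 0.0044 when an array was left out. The 7 were mainly of the ring finger complexes: Pcgf3 (-0.42 ± 0.070), Pcgf5 (-0.42 ± 0.088), Rybp (-0.35 ± 0.065), Yaf2 (-0.27 ± 0.065), the chromodomain protein Cbx2 (-0.36 ± 0.077) and Fbxl10, named Kdm2b in RefSeq (-0.36 ± 0.069). Aebp2, a cofactor of the other Polycomb complex, had -2.82 and -2.90 with V5, against -2.37 and -1.66 with GFP (-0.84 ± 0.21), with GFP arrays that differed from each other by nearly as much as the antibodies did.

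Genes of the cell cycle had 11 lower (19%, against 7.17% of all genes) and 0 higher of 58 (median -0.15). Cdk2, a kinase of the G1 to S transition and of meiotic prophase, had -1.20 and -1.04 with V5, against -0.48 and -0.34 with GFP (-0.71 ± 0.092, adjusted p = 0.0263). Ccna2, cyclin A2, had 0.63 and 0.54 with V5, against 1.11 and 1.07 with GFP (-0.50 ± 0.065). Also lower were the inhibitory kinase Wee1 (-0.67 ± 0.14), Ccni (-0.55 ± 0.12), Cdk8 (-0.53 ± 0.080), the transcription factors E2f5 (-0.46 ± 0.080) and E2f8 (-0.42 ± 0.084), Aurkb of the chromosomal passenger complex (-0.40 ± 0.065) and cyclin B1, Ccnb1 (-0.31 ± 0.071). Cdc25a and Ccnd1, described above, complete the 11.

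Of 43 kinetochore and spindle checkpoint genes 5 fell, 11.6% against 7.17% of all genes, and 0 rose. The median was 0.011, with a range of 0.0082 to 0.071 when an array was left out. Cenpa, the histone H3 variant of the centromere, had -0.063 and 0.13 with V5, against 0.75 and 0.77 with GFP (-0.73 ± 0.12). The other 4 were 1700022L09Rik, named Dsn1 in RefSeq (-0.53 ± 0.077), Spbc25, named Spc25 (-0.51 ± 0.084), Cdca8 (-0.40 ± 0.089) and the checkpoint protein Bub3 (-0.26 ± 0.063). Both V5 arrays were above both GFP arrays for 20 of the 43 genes, near the share of all genes, 45.4%.

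Several families named by their symbols were lower with V5. Of 32 ubiquitin-conjugating enzymes, which hand ubiquitin to its ligases, 14 fell and 0 rose (43.8% lower, against 7.17% of all genes; median -0.32). Ube2n, which builds ubiquitin chains in the DNA damage response, had 1.66 and 1.49 with V5, against 2.31 and 2.33 with GFP (-0.74 ± 0.11, adjusted p = 0.0281), and its partner Ube2v1 fell too (-0.47 ± 0.11). Ube2t, of the Fanconi anaemia pathway, had 4.56 and 4.57 with V5, against 5.19 and 5.07 with GFP (-0.56 ± 0.072). Ube2c, of the anaphase-promoting complex, was lower by its 1 probe (-0.43 ± 0.071), and Ube2b, which is needed for spermatogenesis, had -0.46 ± 0.099. Ube2a, the close relative of Ube2b, did not pass (0.097 ± 0.072). In the 4-array fit 18 members had an unadjusted p below 0.05 with lower levels, and 1 with a higher level.

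The general transcription factor TFIID holds TBP and its associated factors. Of 24 genes of this family 8 fell, 33.3% against 7.17% of all genes, and 0 rose (median -0.29). Tbp itself had -0.021 and -0.45 with V5, against 0.61 and 0.39 with GFP (-0.74 ± 0.16), with a difference that ranged from -0.95 to -0.52 when an array was left out. The germ cell paralogue Taf7l had 2.72 and 2.56 with V5, against 3.19 and 3.08 with GFP (-0.50 ± 0.090), and its somatic counterpart Taf7 -0.66 ± 0.14. Taf5, Taf9, Taf11, Taf12 and Taf4a fell by differences of -0.53 (Taf9) to -0.33 (Taf12). Of 27 Mediator subunits, which bridge transcription factors and RNA polymerase II, 6 fell, 22.2% against 7.17% of all genes, and 0 rose (median -0.20). Med19 fell furthest (-0.54 ± 0.077). The Mediator median ranged over -0.25 to -0.12 when an array was left out. With spike-in scaling 5 and 4 members of these families were called lower.

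Of the splicing proteins more fell than rose. Among 69 RNA-binding motif, hnRNP and SR proteins 20 fell and 1 rose (median -0.26). The shares were 29% and 1.45%, against 7.17% and 6.76% of all genes. Rbm22, a component of the active spliceosome, had 0.34 and 0.38 with V5, against 0.97 and 0.98 with GFP (-0.62 ± 0.059, adjusted p = 0.0263). 1700012H05Rik, named Rbmxl2 in RefSeq, a germ cell relative of the hnRNP protein Rbmx, had 4.58 and 4.45 with V5, against 5.14 and 5.16 with GFP (-0.63 ± 0.082). Sfrs2, named Srsf2 in RefSeq, was lower by all 4 of its probes (-0.55 ± 0.083). Of 31 proteins of the spliceosomal small nuclear particles 6 fell, 19.4% against 7.17% of all genes, and 0 rose (median -0.20). Snrpb (-0.69 ± 0.086) and Lsm3 (-0.62 ± 0.097) were among the 6. In contrast, 51 DEAD and DEAH box helicases had 1 lower, 1 higher (1.96% each) and a median of 0.15. The difference between these families was not tested.

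The machinery that brings proteins into the endoplasmic reticulum had 9 lower and 1 higher of 39 (median -0.15, or -0.23 to -0.090 when an array was left out). The shares called were 23.1% lower and 2.56% higher, against 7.17% and 6.76% of all genes. Sec61a2, a paralogue of the translocon pore, had 0.69 and 0.46 with V5, against 1.23 and 1.32 with GFP (-0.70 ± 0.092). The signal peptidase subunits Spcs2 (-0.62 ± 0.089) and Spcs3 (-0.43 ± 0.095), the translocon-associated proteins Ssr1 (-0.50 ± 0.084) and Ssr3 (-0.39 ± 0.10), Srp14 of the signal recognition particle (-0.44 ± 0.080) and the disulfide isomerase Pdia3 (-0.73 ± 0.16) fell. Ssr4, of the same translocon-associated complex as Ssr1 and Ssr3, rose (0.30 ± 0.071, with both of its probes higher). Its call ended with spike-in scaling (limma adjusted p = 0.298), where 0 members of this group were called higher and 6 lower. Among 22 importins and exportins 4 fell (18.2%), with Kpnb1, importin beta, at -0.49 ± 0.078, and 1 rose (4.55%), Ipo4 (0.33 ± 0.078). The median of the 22, -0.14, ranged over -0.19 to -0.074 when an array was left out. With spike-in scaling 0 were called higher and 2 lower. Of 52 Rab proteins, which direct vesicle traffic, 12 fell (23.1%) and 2 rose (3.85%) around a median of 0.0025.

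Meiotic prophase genes were divided. Of 30 measured genes 3 rose and 3 fell, 10% each, against 6.76% and 7.17% of all genes. Their median was 0.088, near that of all genes, or 0.049 to 0.091 when an array was left out. Syce2, of the central element of the synaptonemal complex, had 5.02 and 5.06 with V5, against 5.51 and 5.57 with GFP (-0.50 ± 0.078, adjusted p = 0.0289). Stra8, described above, was among the others that fell. Mei1, needed for meiotic double-strand breaks, had 3.34 and 3.30 with V5, against 2.92 and 3.01 with GFP (0.36 ± 0.073), and the meiotic cohesin subunit Smc1b had 4.57 and 4.51 with V5, against 4.27 and 4.22 with GFP (0.30 ± 0.066). With spike-in scaling 0 of the list were called higher and 2 lower. In the piRNA pathway, which silences transposons in germ cells, 2 of 19 fell, Fkbp6 (-0.42 ± 0.081) and 4921515J06Rik, named Henmt1 in RefSeq (-0.32 ± 0.073, with 1 of 2 probes of the opposite sign). The methyltransferase Prmt5 had the opposite sign and did not pass (0.26 ± 0.075, adjusted p = 0.0617).

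Genes of late spermatocytes and spermatids were on the other side, with 5 higher and 0 lower of 32 measured of 41 listed (median 0.21). The share called higher was 15.6%, against 6.76% of all genes. Ldhc, the lactate dehydrogenase of spermatocytes and sperm, had 6.37 and 6.38 with V5, against 6.07 and 5.89 with GFP (0.39 ± 0.086, adjusted p = 0.0381). The transition protein Tnp1 had -2.52 and -2.46 with V5, against -3.01 and -3.48 with GFP (0.75 ± 0.16), with a difference from 0.52 to 0.99 when an array was left out. Tnp2 had -4.30 and -4.65 with V5, against -5.37 and -5.38 with GFP and was not above background on either GFP array, which makes it at least 1.76-fold higher with V5 (adjusted p = 0.0351). Spag16 of the sperm axoneme (0.33 ± 0.068) and Zpbp2 of the acrosome (0.28 ± 0.071) rose as well. Both V5 arrays were above both GFP arrays for 22 of the 32 genes, against 45.4% of all genes. Of the 32 genes, 27 were above background on all 4 arrays. With spike-in scaling the median was 0.10 and 1 gene was called higher.

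Among markers of somatic cells most calls were upward. Of 32 Sertoli markers 10 rose, 31.25% against 6.76% of all genes. Both V5 arrays were above both GFP arrays for 26 of them, against 45.4% of all genes (median 0.25). Some families outside these markers had medians nearly as high, such as 0.24 for keratins and 0.21 for potassium channels. Amhr2, the receptor of anti-Müllerian hormone, had 7.56 and 7.48 with V5, against 7.15 and 7.20 with GFP (0.34 ± 0.072, adjusted p = 0.0361). Cst9, a cystatin, had 7.29 and 7.25 with V5, against 6.89 and 6.96 with GFP (0.35 ± 0.071), and the transcription factor Sox9 had 2.26 and 2.15 with V5, against 1.92 and 1.90 with GFP (0.30 ± 0.068). The inhibin subunit Inhbb (0.31 ± 0.063), the signal Dhh (0.29 ± 0.072), transferrin, Trf (0.39 ± 0.095), Cst12 (0.32 ± 0.070), Cldn3 (0.32 ± 0.077), Shbg (0.30 ± 0.075) and Rhox5 (0.33 ± 0.084) rose too. The only list member that fell was Dmrt1, which spermatogonia express as well. On the other slide, Amhr2 stood at 7.89 in the IgG mock and 6.92 in input and Cst9 at 7.49 in the IgG mock and 7.17 in input.

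Of 20 myoid markers 4 rose, 20% against 6.76% of all genes, and 0 fell (median 0.22). Among the 4 were the smooth muscle proteins Smtn (0.61 and 0.63 with V5, against 0.16 and 0.23 with GFP) and Tagln (0.28 ± 0.065). Among 23 leukocyte markers the macrophage genes Emr1, named Adgre1 in RefSeq (0.36 ± 0.082), and C1qb (0.38 ± 0.097) rose and Laptm5 fell (-0.47 ± 0.10). The share called higher, 8.70%, was near the 6.76% of all genes, and 4.35% were lower, against 7.17%. Of 15 Leydig markers the steroid enzymes Hsd17b3 (0.38 ± 0.087) and Cyp19a1 (0.27 ± 0.068) rose, 13.3% against 6.76% of all genes, though other testis cells also make Cyp19a1. The 14 endothelial markers gave 0 calls by limma's adjusted p. Of these, 11 had non-overlapping arrays with V5 above GFP, against 45.4% of all genes. In the 4-array fit 6 had an unadjusted p below 0.05. Of 6 erythroid markers 0 were called, with Alas2 at 0.34 ± 0.096 and 2 higher and 1 lower at an unadjusted p below 0.05 in the 4-array fit. These calls end when the arrays are scaled to spike-in RNA: 0 Sertoli, 0 myoid, 0 leukocyte and 0 Leydig markers were called higher, and the medians were 0.14, 0.11, 0.13 and 0.077, against -0.019 over all genes. Each array holds RNA of a whole precipitate. Differences in RNA bound by the protein or its partners, in adhering RNA, in cells of a type and in RNA per cell therefore cannot be told apart. Whether RNA of somatic cells has a part in the differences of the germ cell genes was not tested.

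**Figure D2:**
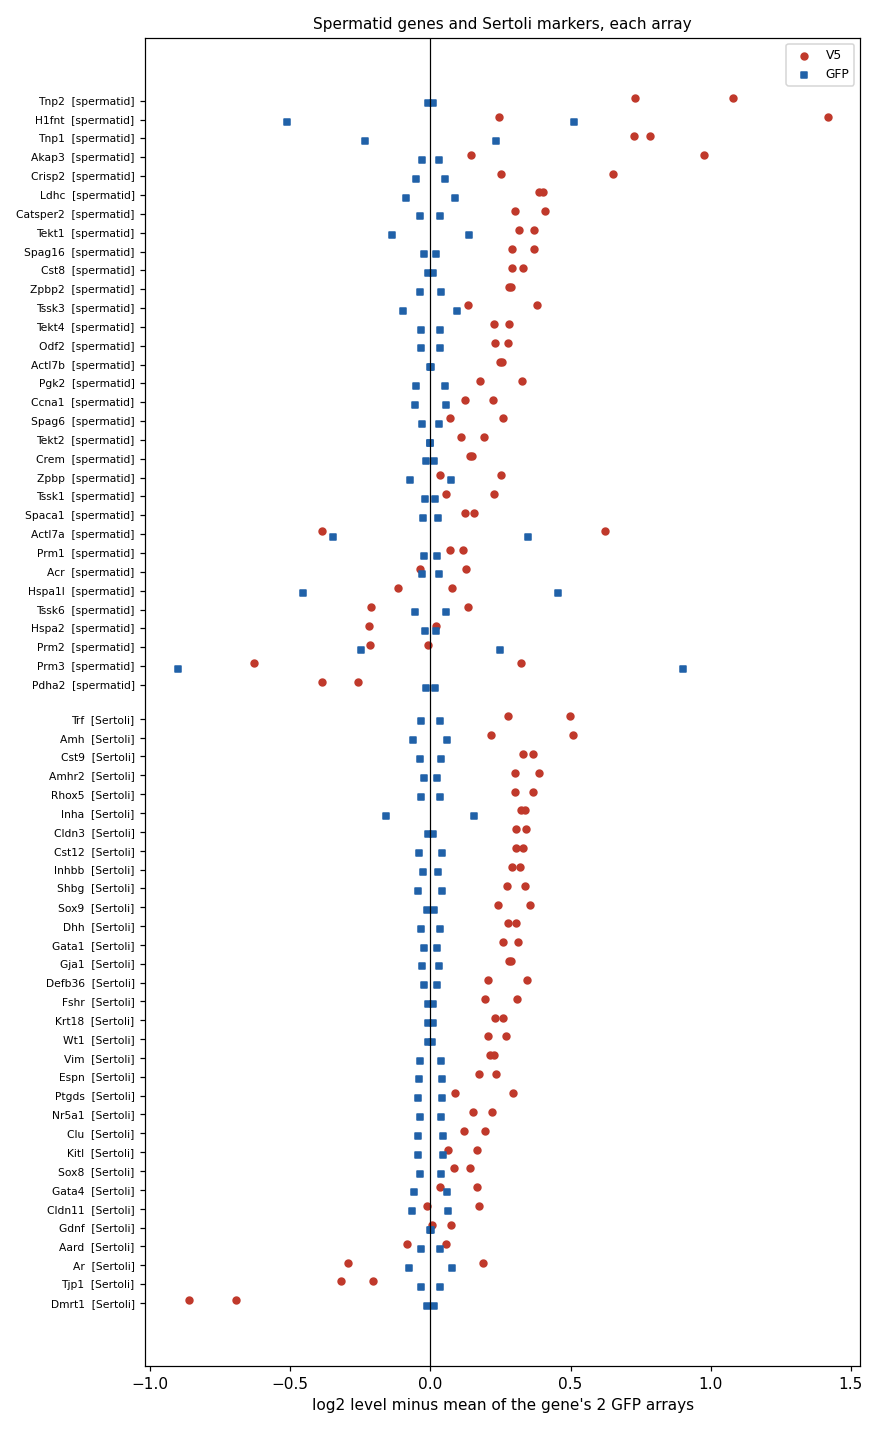
Log2 level of each V5 array (red circles) and GFP array (blue squares) minus the mean of that gene's 2 GFP arrays, for genes of late spermatocytes and spermatids and for Sertoli markers. Both red circles lie right of both blue squares for 22 of 32 genes of late spermatocytes and spermatids and for 26 of 32 Sertoli markers. Dmrt1 lies farthest left of the Sertoli markers.

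Abundant housekeeping families were shifted a little upward with V5, with few calls. Of 82 genes named as cytosolic ribosomal proteins 62 had both V5 arrays above both GFP arrays, against 45.4% of all genes, but 3 rose and 1 fell (median 0.16). The share called higher, 3.66%, was below the 6.76% of all genes. The 3 were Rps4x (0.33 ± 0.061), Rpl26 (0.31 ± 0.074) and Rpl7a (0.28 ± 0.071), and the lower one was Rpl7l1 (-0.34 ± 0.082), a ribosome-like protein rather than a ribosomal subunit. Of 87 genes of oxidative phosphorylation 4 rose and 4 fell, 4.6% each (median 0.20). Both V5 arrays were above both GFP arrays for 70 of the 87 and below both for 8. The succinate dehydrogenase subunits Sdhc (3.54 and 3.51 with V5, against 4.00 and 3.99 with GFP) and Sdhd (-0.38 ± 0.079) and the complex I subunit Ndufc2 (-0.48 ± 0.079) were among those that fell, and the complex I subunits Ndufv1 (0.31 ± 0.066), Ndufa9 (0.34 ± 0.080) and Ndufb11 (0.30 ± 0.064) rose. With spike-in scaling 0 genes of this family were called higher and 4 lower. Of 39 proteasome subunits 4 rose and 1 fell, 10.3% and 2.56%, against 6.76% and 7.17% of all genes. Psma4 was among those that rose (0.45 ± 0.097), and Psmd11 fell (-0.52 ± 0.091). With spike-in scaling the medians of these 3 families were 0.050, 0.091 and 0.045.

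**Figure D3:**
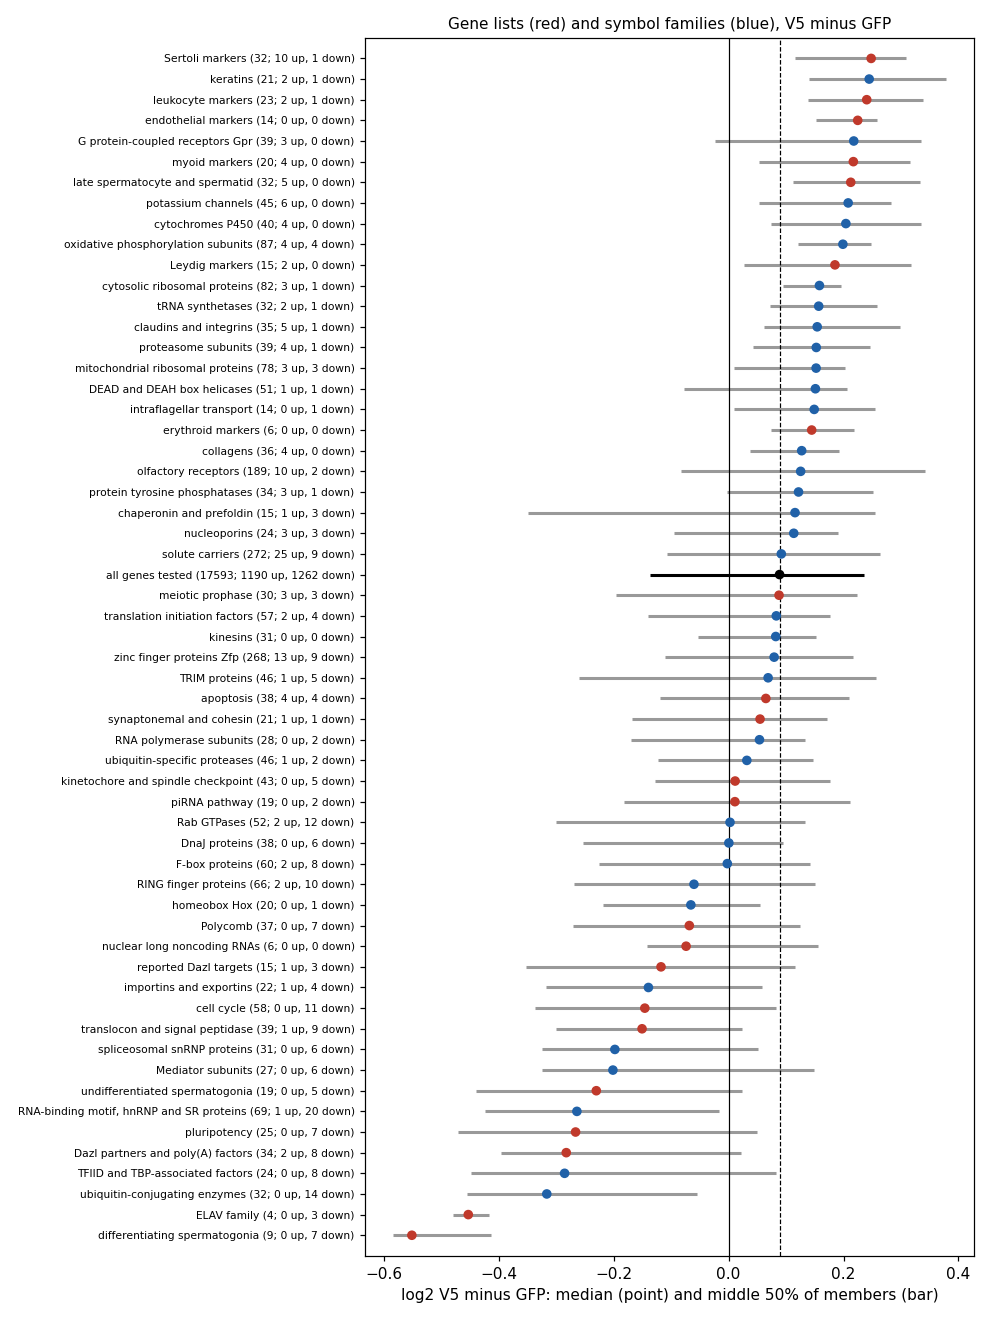
Median log2 V5 minus GFP (point) and the middle 50% of members (bar) of 57 lists (red) and symbol families (blue) and of all genes (black); labels give the number measured and how many were called higher (up) and lower (down) with V5. The dashed line is the median of all genes, 0.089. Differentiating spermatogonia are lowest at -0.55 and Sertoli markers highest at 0.25.

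Most of the 14 lowest genes chosen by the naming rule, which leaves out genes dim with both antibodies and accession, clone, LOC, Gm or RIKEN names, were above background on all 4 arrays. Plekhb2, a membrane protein with a pleckstrin homology domain, had 1.19 and 1.11 with V5, against 2.04 and 2.09 with GFP and was 1.89-fold higher with GFP (-0.91 ± 0.068, adjusted p = 0.0215), with all 3 of its probes lower. Hmox1, heme oxygenase, had 2.40 and 2.64 with V5, against 3.30 and 3.31 with GFP (-0.78 ± 0.087), and Ywhae, a 14-3-3 protein, had 1.60 and 1.54 with V5, against 2.37 and 2.41 with GFP (-0.81 ± 0.12). The apoptosis inhibitor Api5 (-0.84 ± 0.11), the heme lyase Hccs (-0.78 ± 0.11), the nuclear envelope protein Emd (-0.76 ± 0.096), the adaptor Apba2 (-0.79 ± 0.11), the RNA-binding protein Khdrbs2 (-0.82 ± 0.17) and the planar polarity protein Vangl2 (-0.75 ± 0.12, all 4 probes lower) followed. The kisspeptin receptor Kiss1r had -4.73 and -4.79 with V5, against -3.68 and -3.67 with GFP (-1.09 ± 0.16, 2.12-fold higher with GFP), the lowest difference among the genes chosen this way. Its V5 levels lay not far above the lowest signals above background on those arrays, -5.56 and -5.26. Over the alternative settings its difference ranged from -1.19 to -0.17. Rab37 and Olfr434 were not well above background on either V5 array and were at least 1.44-fold and 1.41-fold lower with V5.

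Among the highest differences most genes were near background with GFP. The olfactory receptor gene Olfr578 had -4.61 and -3.97 with V5, against -6.52 and -6.81 with GFP and was at least 1.99-fold higher with V5 (adjusted p = 0.0263), Fbxo16, an F-box protein, at least 2.11-fold, Adora3, an adenosine receptor, at least 1.44-fold, and Olfr1055 at least 1.32-fold. Sult1c1, Ifnab, Olfr24, Chrd, Oc90 and Olfr1143 were above background on 1 of the 2 GFP arrays, with differences of 0.89 (Olfr1143) to 1.37 (Sult1c1). Amac1, named Slc35g3 in RefSeq (1.08 ± 0.14), and Dlx6as, named Dlx6os2 (1.06 ± 0.26), were dim as well but above background on all 4 arrays. Fndc3b was the bright exception, with 3.15 and 3.01 with V5, against 2.12 and 2.19 with GFP (0.93 ± 0.11, 1.90-fold, adjusted p = 0.0263) and both of its probes higher. Fndc3b, a membrane protein with fibronectin domains, stood at 2.41 in the IgG mock and 1.44 in input. Its V5 level lay above those of all other groups, but for IgG and input, slide and group cannot be told apart. In a ranking of genes above background on all 4 arrays, chosen after the values were seen, further high genes were Nav1, a microtubule-associated protein (0.40 and 0.34 with V5, against -0.40 and -0.23 with GFP), and the muscle myosins Myo18b (0.49 and 0.45 with V5, against -0.25 and -0.17 with GFP) and Myh1 (0.70 ± 0.11). Olfactory receptor genes as a family gave 10 higher and 2 lower of 189 (5.29% higher, against 6.76% of all genes), of which 71 were above background on all 4 arrays, and their median ranged over -0.029 to 0.35 when an array was left out. With the filter for genes above background on all 8 arrays 1 was higher and 0 lower, of 66.

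Genes were also ordered by the mock's own enrichment, log2 IgG minus input, from the 4 arrays of the other slide. The differences between antibodies do not use those 4 arrays, but the calls do, through the spread of the fit. Over the 15418 genes above background on all 8 arrays, the decile with the highest IgG over input had a median of 0.16, with 8.56% called higher and 1.43% lower with V5. In the decile with the lowest IgG over input the median was 0.0015, with 5.51% called higher and 9.21% called lower, and the share called lower was greatest in the third decile, at 12.1%. The shares called higher varied less over the deciles than the shares called lower. Across these genes, which are not independent replicates and share arrays, Spearman's rho was 0.20 and Pearson's r was 0.19. Ordered by input level, the difference had a Pearson r of -0.052 over 17593 genes, and the medians of the deciles lay between 0.052 and 0.13. Called shares differed over these deciles too, from 4.55% to 9.89% higher and from 2.79% to 10.2% lower, with the smallest of both in the second decile from the bottom.

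**Figure D4:**
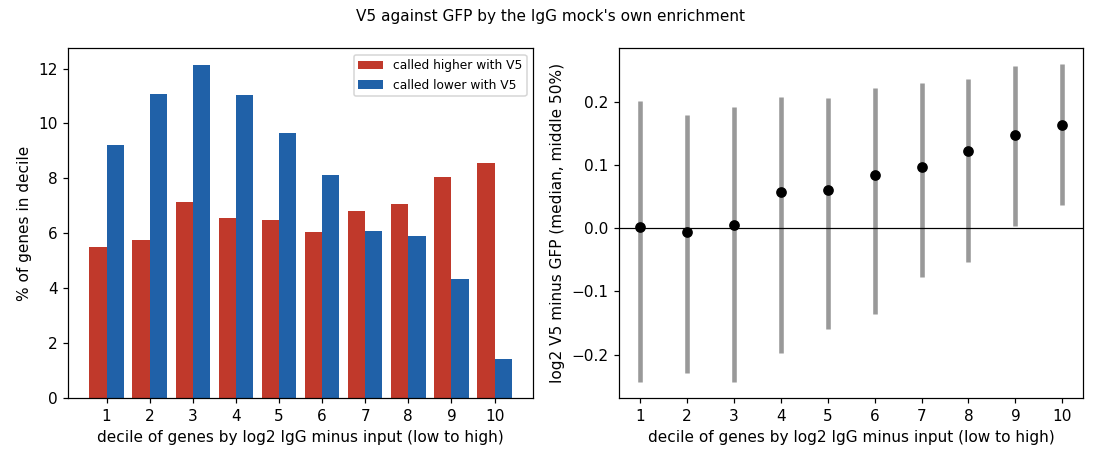
Genes above background on all 8 arrays in deciles by log2 IgG minus input, low to high. Left, the percentage of genes in each decile called higher (red) and lower (blue) with V5, with the share called lower at 9.21% in the lowest decile and 1.43% in the highest; right, the median (point) and middle 50% (bar) of log2 V5 minus GFP.

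The authors' deposited table gives group means of V5 and GFP in their own normalization, with no replicates. For 11482 genes that it matched once, log2 of the ratio of those means correlated with the differences given here at Pearson r = 0.987 over the 10193 genes above background on all 4 arrays. Of 1422 called genes in the authors' deposited table all 1422 had the same sign there. Both come from the same arrays.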

How the data were processed

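Precipitated or input RNA, labelled with Cy3, was measured on one-colour Agilent arrays. Per the file headers, the deposited intensity values come from Feature Extraction, version 9.1.3.1, after background subtraction and detrending of each array. The authors' deposited table holds signal values normalized in GeneSifter and averaged per group, per its comment lines.

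Each processed signal was put on the log2 scale here, minus the array's 75th percentile over non-control spots. Outlier spots were dropped, spots of a probe averaged, probes kept if some group had both arrays well above background, and the brightest kept probe taken per gene name: 17593 genes, of which 23 lack 1 array's value and 12180 have a RefSeq symbol (GRCm38.p6). Group means were fitted over 8 arrays with limma 3.58.1 in R 4.3.3 (4 residual and 2.41 prior degrees of freedom, two-sided, Benjamini-Hochberg at 0.05). A gene below background on both dimmer arrays has a bound from the lowest signals above background. Precision is limited by having 2 arrays a group. The procedure was tested on simulated data.

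The comparison, the 22 lists and the 36 symbol families were chosen with earlier results of these data known, so lists are described by counts and medians, with no test. Named were the 14 highest and 14 lowest non-overlapping called genes bright in one antibody (no accession, clone, LOC, Gm or RIKEN names), Dazl, Pabpc1, the reported targets, and the 4 smallest p-values per list. Full spermatogonial lists, called members of other lists and the ranking above background on all 4 arrays were added after values were seen. Replicate numbers did not pair the arrays (correlation of V5 and GFP deviations 0.021). The description by probe GC content was not run. Values of some called genes are not reported here.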

Additional observations from a re-analysis of the deposited data

How the results depend on the processing

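Counts of calls moved with both the spread and the scaling or background used. The counts, higher and lower with V5, were 1190 and 1262. They were 2 and 0 in the fit of the 4 arrays alone, 2907 and 2092 without the IgG arrays, 3 and 1 without the 2 arrays of conflicting descriptions, 0 and 0 with normexp background (804 genes at an unadjusted p below 0.05), 2 and 2 with no filter on dim probes, 1824 and 1937 with local background subtracted, and 2492 and 1976 with trended moderation. The filter for all 8 arrays gave 2095 higher, and spike-in scaling 110 higher, so that 8.55% of its calls were higher against 48.5%. With the replicate number as a block the counts were 1 and 1, A430036H03Rik and AK051672, and no named call was kept, but the numbers share only a label. Without 1 of the 4 arrays they ranged from 3 to 110 higher and from 2 to 35 lower. The genes called in the 4-array fit were A330050B17Rik and LOC625175, and with no filter 2610001A08Rik, A430036H03Rik, AK051672 and ENSMUST00000065540. Those left without the 2 arrays of conflicting descriptions were A430036H03Rik, BC066140, LOC625175 and AK051672. All these names were picked out once their values were known.

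The fitted background of normexp was -13.8 and -391 for the V5 arrays and -12.4 and -333 for the GFP arrays, so replicates were corrected unequally. Of the 2452 calls, 2435 had the same sign with normexp, 2448 with local background and 2436 with the mean of a gene's probes. Among the 272 called genes followed through the alternatives, those reversed were Zfp2 (-0.26 with normexp, -0.62 with local background, -0.40 with the mean of probes), Xpot (0.14 and 0.16 with the first 2) and Gpr37 (-0.11 with the mean of probes). Other reversed genes are not named here, and the cause was not tested. Among further medians moved by over 1.5 times with normexp were -0.19 for Dazl partners and poly(A) factors, 0.075 for helicases and 0.14 for endothelial markers. Others were 0.043 for kinetochore genes and 0.0059 for Rab proteins. Several medians changed sign. Those of nuclear long noncoding RNAs (-0.074 to 0.059) and Hox genes (-0.066 to 0.033) became positive. Those of RNA polymerase subunits (0.054 to -0.028), the piRNA pathway (0.011 to -0.023), synaptonemal and cohesin genes (0.055 to -0.0057) and DnaJ proteins (0.00045 to -0.043) became negative. Dim signals limit the high differences most.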

Other observations

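Genes with more kept probes were lower with V5: the median difference was 0.11 for the 11642 genes with 1 kept probe, 0.052 for the 4319 with 2, and -0.021 for the 1632 with 3 or more, and 5.70% of the first and 12.6% of the last were called lower. Of the 945 called genes with several kept probes, 795 had all probes of one sign. Apoptosis genes gave 4 higher and 4 lower of 38. Among those that fell, and above background on all 4 arrays, were Casp2 (-0.47 ± 0.091), the mitochondrial activator Diablo (-0.51 ± 0.081) and the BH3-only protein Pmaip1 (-0.53 ± 0.092). Nuclear long noncoding RNAs gave 0 calls of 6 by limma, with 1 higher and 1 lower at an unadjusted p below 0.05 in the 4-array fit. Among them Malat1 had -1.25 and -0.84 with V5, against -1.31 and -1.56 with GFP and Tug1 -0.42 and -0.55 with V5, against -0.11 and -0.078 with GFP.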
